A study of Mus musculus with 4 samples.

Results

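The genes described here encode enzymes that make cholesterol and fatty acids, proteins that regulate the genes of those enzymes, and proteins of sterol transport. They were chosen by name as a fixed list of 30 genes. A probe was taken as a member when its gene name on the array, or the current symbol of its RefSeq transcript, was on the list. Msmo1, which the array calls Sc4mol, entered in the latter way. All 30 genes had a probe, with 60 probes among the 41174 on the array, and 56 of these probes, covering all 30 genes, were bright enough to be tested.

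The study compared B16-F10 cells, a mouse melanoma line grown in culture, after 2 h with 15 ug/ml of a goat polyclonal agonist anti-mouse TIM3 antibody or with the same dose of unspecific goat IgG. TIM-3, encoded by Havcr2, is an immune checkpoint receptor best known from T cells. RNA of the antibody-treated cells was labelled with Cy5 and RNA of the IgG-treated cells with Cy3, and each of 4 two-colour Agilent arrays held both samples of a passage (14, 16, 18 and 19, which are biological replicates 1 to 4). The Cy5 treatment protocol is not repeated in the label of replicate 3, whose source name does give the antibody. All passages are of a single line, so the spread below is between passages, and the dyes were never exchanged, so the antibody's effect and the dye's cannot be told apart at any probe. In cultured cells, fewer cells with a transcript and less transcript per cell cannot be told apart either.

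Of the 41174 probes, 21151 to 22086 were well above background in the IgG channel and 25703 to 28400 in the antibody channel. The melanocyte lineage was plain in these RNAs: all 7 marker genes (Mlana, Pmel, Dct, Tyrp1, Tyr, Mitf and Sox10) had a probe that stood well above background in each channel of every array, at mean log2 intensities of 10.18 to 16.81. None of the 3 adipocyte markers did, nor did the hepatocyte genes Alb and Apoa1 or the leukocyte genes Ptprc and Itgam. Cyp7a1, Cd3e and Cd68 were above background but dim, at 7.26 to 7.59. The tested Havcr2 probe had a log2 ratio of 0.04 ± 0.04 (SD, n = 4; adjusted p = 0.4).

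Cells make cholesterol from acetyl-CoA through mevalonate, farnesyl diphosphate, squalene and lanosterol, and make fatty acids from the same acetyl-CoA. Genes of both routes are switched on by the transcription factors SREBP-1 and SREBP-2, encoded by Srebf1 and Srebf2. These factors stay in the endoplasmic reticulum with their escort, encoded by Scap, as long as the INSIG proteins hold the escort there in the presence of sterols, and they move on and reach the nucleus when sterols run low. SREBP-2 acts mainly on cholesterol genes and SREBP-1 mainly on fatty acid genes, and Insig1 is itself an SREBP target.

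Values below are log2 ratios of the antibody over the IgG sample of the same passage, so that a value above 0 means more signal after the antibody, and "rose", "fell" or "called" means an adjusted p under 0.05 in limma over all tested probes. Where 4 ratios stand in a row they are those of passages 14, 16, 18 and 19, in that order. The genes did not move as a block. Of the 56 tested probes, 12 rose, 15 fell and 29 were not called, against a background of 27.8% called among every tested probe (14.2% higher and 13.6% lower). The members' shares were 21.4% higher and 26.8% lower. Taking each gene at its brightest tested probe, 9 genes rose, 6 fell and 15 were not called, where 28% of 14469 named genes were called, 14.6% higher and 13.4% lower. The median of the 30 genes was -0.005, and in the separate passages it was -0.049, 0.021, -0.004 and -0.009. Over the named genes of the array the median was 0.006, and by passage -0.015, 0.019, 0.013 and 0.011.

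The members were brighter than most probes, with a median log2 intensity of 11.4 against 8.95 for every tested probe, and brighter probes were called more often. Between 10 and 12 in log2 intensity 11 of 19 member probes were called (57.9%), where 34.1% of every tested probe was. Between 12 and 15 the numbers were 8 of 18 (44.4%) and 35.3%, and under 10 they were 6 of 15 (40%) and 22.6%. Over 15 the members' share was the lower one, with 2 of 4 called (50%) against 61.6%. The changes were small: the median absolute ratio of the called member probes was 0.16, the largest rise was 1.36-fold (Fasn) and the largest fall 1.32-fold (Hmgcs1). The ratios had the same sign on all 4 arrays for 34 of the 56 tested probes (60.7%, against 47.7% of every tested probe).

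The calls rest on the pairing within each array and on the normalisation within it. Of the 27 called probes, 11 were also called from the deposited processed signals, 21 once trends on intensity and base composition were removed, and 9 whichever single replicate was left out. The share of member probes called, 48.2% here, was 21.4% with the deposited processed signals, where that of every tested probe was 19.7%, and 41.1% against 26.1% with trends removed. Of the fits without 1 replicate, that without replicate 4 gave the lowest count, 5 higher and 6 lower (19.6% against 15.9% of every tested probe). Under all 3 conditions 8 probes were called, those of Insig2, Ebp, Stard4, Mvk, Hmgcs1 and Cyp51 with their largest change and a pair of Nsdhl probes. How often called probes of the whole array kept their calls probe by probe is not given here. The 8 therefore cannot be set against the array. Median centring in place of loess left no member probe called (11 higher and 3 lower had an unadjusted p under 0.05). It left 0.44% of every tested probe called (2311 higher and 561 lower of 26545 by unadjusted p). With the channels fitted without their pairing 0 rose and 1 fell, a probe of Mvk (6 higher and 7 lower by unadjusted p). That is 1.79% of member probes, where 2.19% of every tested probe was called (2438 higher and 2408 lower by unadjusted p). Against a minimum change of 1.2-fold 0 were called in either direction (2 higher and 1 lower by unadjusted p). Of every tested probe 0.21% then passed (246 higher and 163 lower by unadjusted p).

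**Figure D1:**
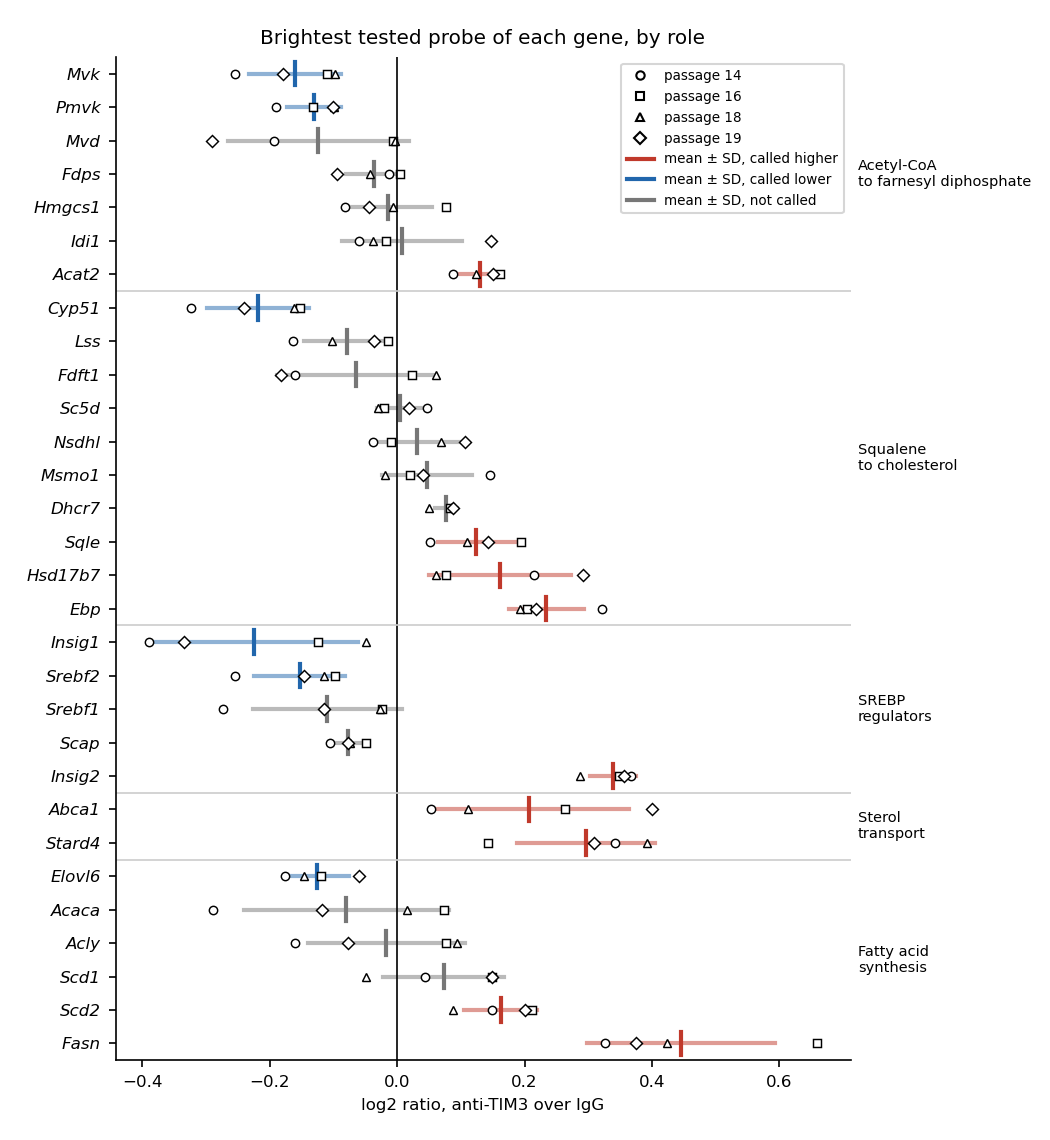
Log2 ratio of the antibody over the IgG sample (horizontal axis) for the brightest tested probe of each of the 30 genes, grouped by role. Open symbols are the 4 passages, and the coloured tick and bar give the mean and SD. Insig2 and Insig1 lie on opposite sides of 0 on every array, and each role holds genes on both sides except sterol transport.

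Among the regulators of the pathway Insig2 rose and Insig1 fell at their brightest probes. The products of both genes retain the SREBP escort in the endoplasmic reticulum. For Insig2 the log2 signal went from 13.04 to 13.40, from 12.81 to 13.16, from 12.72 to 13.01 and from 12.94 to 13.29 between the IgG and antibody channels. The 4 steps were alike while the passages themselves differed, so that the ranges of the channels overlapped but each array showed the same rise. The ratio was 0.34 ± 0.04 (SD, n = 4; 1.27-fold; adjusted p = 0.000576) at a probe at chr1:121175294-121175353 (mm7, minus strand). The other tested Insig2 probe had ratios of 0.08, 0.18, 0.12 and 0.15 and also rose (0.13 ± 0.04; adjusted p = 0.0222). Its call ended when replicate 2, 3 or 4 was left out (adjusted p = 0.0984, 0.0582 and 0.0759), and with the deposited processed signals (adjusted p = 0.0621). A further Insig2 probe, which the files place on the opposite strand, was above background on no array and was not tested.

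Insig1 had ratios of -0.39, -0.12, -0.05 and -0.33 at chr5:27110161-27110220 (mm7, plus strand). All 4 were below 0, with passages 14 and 19 well below the other pair. It fell by 0.22 ± 0.16 (SD, n = 4; adjusted p = 0.0202), and the call ended when replicate 1 or 4 was left out (adjusted p = 0.0815 and 0.08), and also with the deposited processed signals (adjusted p = 0.112). The other Insig1 probe had -0.10, 0.06, 0.03 and -0.13 and was not called (adjusted p = 0.523), nor was the mean of both probes (-0.13; adjusted p = 0.0698). Within an array, Insig2 minus Insig1 was 0.76, 0.47, 0.34 and 0.69, a mean difference of 0.56 ± 0.19 (SD, n = 4). This within-array difference was 0.70 with median centring, 0.53 from the deposited processed signals and 0.52 with trends removed. All of these use the brightest probe of each gene. The mean ratios of the other tested probes stood less far apart, at 0.13 for Insig2 and -0.04 for Insig1.

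Srebf2, which encodes SREBP-2, fell at 3 of its 4 tested probes. Its brightest probe, at chr15:82289660-82289719 (mm7, plus strand), had -0.26, -0.10, -0.11 and -0.15 and fell (-0.15 ± 0.07; adjusted p = 0.0188), but its ratio was 0.16 with median centring. The probe with the largest change had -0.40, -0.22, -0.09 and -0.53 (-0.31 ± 0.19; adjusted p = 0.00923), again lowest in passages 14 and 19. The dimmest probe had -0.11, -0.15, -0.13 and -0.10 (-0.12 ± 0.02; adjusted p = 0.0232), and the channels did not overlap there, with 7.01 to 7.06 in IgG and 6.91 to 6.94 after the antibody. The remaining probe was not called (-0.01; adjusted p = 0.86). Without replicate 1 the first 2 of these falls did not pass (adjusted p = 0.0515 and 0.0516), the first also not without replicate 4 (adjusted p = 0.0566), and the dimmest probe lost its call when replicate 2, 3 or 4 was left out (adjusted p = 0.0928, 0.0828 and 0.0597). From the deposited processed signals only the dimmest of the 3 passed (adjusted p = 0.028).

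Srebf1, measured by a single probe, had -0.27, -0.02, -0.03 and -0.12 and was not called (-0.11 ± 0.12; adjusted p = 0.107). Its ratio stood within 0.09 of that of the brightest Srebf2 probe on every array (Srebf2 minus Srebf1 was 0.02, -0.07, -0.09 and -0.03). Both genes were below 0 on all 4 arrays, and the test separated them from 0 for Srebf2 only; their difference averaged -0.04 ± 0.05 (SD, n = 4) and was not tested. Scap was slightly below 0 on every array, at -0.11, -0.05, -0.07 and -0.08, and was not called (-0.08 ± 0.02; adjusted p = 0.112).

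**Figure D2:**
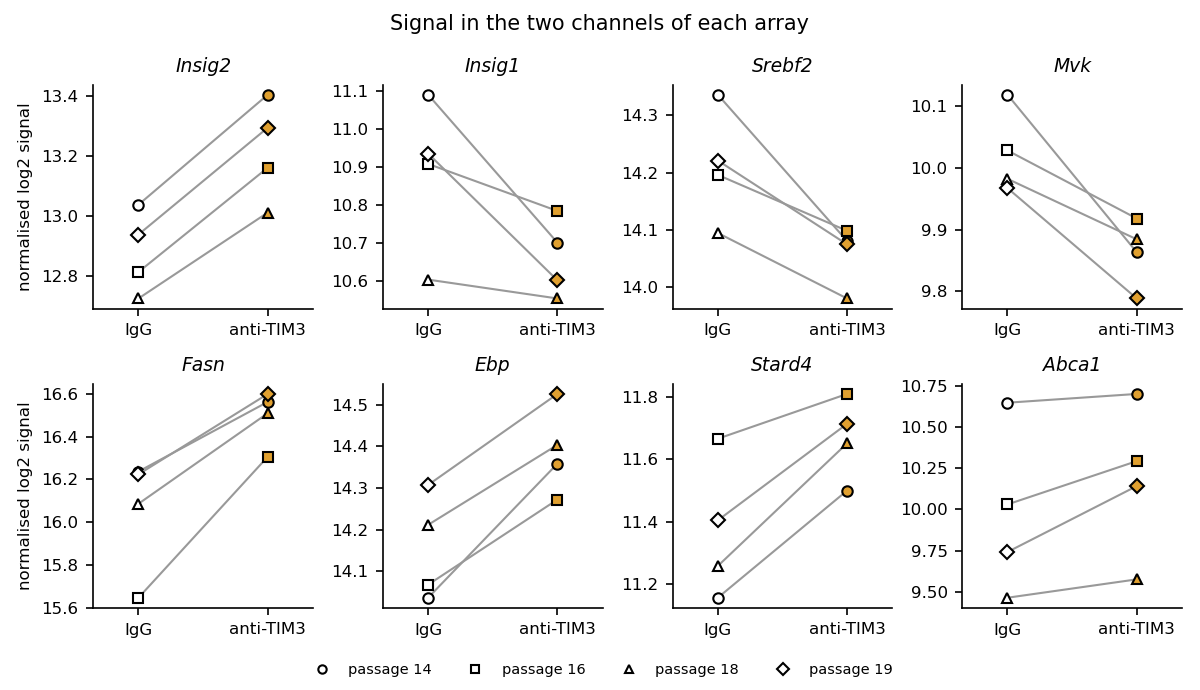
Normalised log2 signal (vertical axis, scaled for each gene) in the IgG channel (open symbols) and the antibody channel (filled symbols) of each array, joined within an array, for the brightest tested probe of 8 genes. The lines run the same way in all 4 passages for each gene. For most of the genes the IgG level ranged over the passages by more than the mean ratio, as for Abca1, where it ran from 9.46 to 10.65. The exceptions are Insig2 (a range of 0.31 against a ratio of 0.34) and Mvk (0.15 against an absolute ratio of 0.16).

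Promoter sequence is something the list did not use. SREBPs bind sterol regulatory elements and work together with the factor NF-Y, which binds CCAAT boxes, and SREBP-1 can also bind E-boxes. In RefSeq windows from 250 bases before to 50 after a transcript start (GRCm38.p6), which were found for 24 of the 30 genes, 19 genes (of all genes with a window, 41.1%) held a CCAAT box on either strand in at least 1 window. An E-box, CACGTG, stood in the windows of 6 genes (8.09% of all genes), and TCACNCCAC, a form of the sterol regulatory element, in that of 1 gene, Hmgcs1 (1.44% of all genes). By windows the shares were 20 of 32 for CCAAT (37.4% of all windows), 7 of 32 for CACGTG (7.15%) and 1 of 32 for TCACNCCAC (1.24%). Both strands were searched, and no matches of different motifs overlapped in the members' windows. A match is a run of letters and not a measured binding site.

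The promoters of Insig2 and Insig1 are shown because these related genes were called in opposite directions at their brightest probes. That of Hmgcs1 is shown because it holds the sterol element. That of Mvk is shown because it holds the most CCAAT boxes of these 4 and both Mvk probes fell. Each line gives the 250 bases before the start, 5′ to 3′ on the strand of the gene, with matches of the motifs above in capitals (ATTGG is CCAAT on the other strand). For Insig2 the 1 window of its 3 with the most CCAAT boxes is given.
Insig2, chr1:121332590-121332839 (GRCm38.p6, minus strand): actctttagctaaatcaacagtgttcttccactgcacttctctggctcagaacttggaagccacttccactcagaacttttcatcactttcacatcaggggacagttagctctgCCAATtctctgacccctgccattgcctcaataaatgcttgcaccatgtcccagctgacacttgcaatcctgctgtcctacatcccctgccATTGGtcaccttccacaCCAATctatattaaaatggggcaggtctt
Insig1, chr5:28071162-28071411 (GRCm38.p6, plus strand): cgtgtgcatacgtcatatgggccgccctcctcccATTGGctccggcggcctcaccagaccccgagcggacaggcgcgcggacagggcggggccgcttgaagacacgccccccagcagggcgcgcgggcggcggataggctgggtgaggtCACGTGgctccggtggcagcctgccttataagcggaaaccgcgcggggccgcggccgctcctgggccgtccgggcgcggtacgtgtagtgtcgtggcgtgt
Hmgcs1, chr13:119690101-119690350 (GRCm38.p6, plus strand): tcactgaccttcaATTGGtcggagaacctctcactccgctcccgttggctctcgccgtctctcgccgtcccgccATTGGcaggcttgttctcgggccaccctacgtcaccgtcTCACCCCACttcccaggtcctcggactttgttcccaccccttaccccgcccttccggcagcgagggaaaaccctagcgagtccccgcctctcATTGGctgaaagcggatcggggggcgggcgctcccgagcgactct
Mvk, chr5:114444019-114444268 (GRCm38.p6, plus strand): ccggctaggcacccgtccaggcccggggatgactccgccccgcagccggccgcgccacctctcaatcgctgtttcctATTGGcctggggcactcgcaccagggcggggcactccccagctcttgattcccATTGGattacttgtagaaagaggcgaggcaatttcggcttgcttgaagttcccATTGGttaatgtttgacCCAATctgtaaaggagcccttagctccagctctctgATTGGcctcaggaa
The genes with a CCAAT box included some that rose (Insig2, Ebp, Hsd17b7, Fasn), some that fell (Mvk, Pmvk, Insig1, Srebf2, Cyp51) and some not called at their brightest probe (Idi1, Mvd, Lss, Msmo1).

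From acetyl-CoA to farnesyl diphosphate, 1 of 7 genes rose, 2 fell and 4 were not called at the brightest probe. Over the named genes of the array 14.6% rose and 13.4% fell. Of 13 tested probes 1 rose and 5 fell (7.69% and 38.5%, against 14.2% and 13.6% of every tested probe). The median of the 7 genes was -0.04, and it was below 0 in each passage (-0.08, -0.01, -0.04 and -0.09). Mevalonate kinase, Mvk, fell at both its probes. At chr5:113674161-113674220 (mm7, plus strand) the ratios were -0.41, -0.17, -0.26 and -0.42 (-0.32 ± 0.12; adjusted p = 0.00261), and the 2 channels did not overlap, with 9.30 to 9.49 in IgG and 8.99 to 9.15 after the antibody. At the brighter probe they were -0.26, -0.11, -0.10 and -0.18 (-0.16 ± 0.07; adjusted p = 0.0161), also without overlap. The brighter probe lost its call when replicate 4 was left out (adjusted p = 0.058), and also with the deposited processed signals (adjusted p = 0.0668).

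Phosphomevalonate kinase, Pmvk, the next enzyme, had -0.11, -0.13, -0.10 and -0.11 at the first of 2 adjoining probes and -0.19, -0.13, -0.10 and -0.10 at the second. Both fell (-0.11 ± 0.01 and -0.13 ± 0.04; adjusted p = 0.0302 and 0.0237) by amounts close to each other, but both had ratios above 0 with median centring (0.10 and 0.11). Neither passed when any 1 replicate was left out, with adjusted p-values from 0.0517 to 0.114, or with the deposited processed signals (adjusted p = 0.0903 and 0.0591). With trends removed the ratios were closer to 0, at -0.02 and -0.06 (adjusted p = 0.736 and 0.212). Acat2, the cytosolic thiolase that joins acetyl-CoA units at the start of the route, had 0.09, 0.16, 0.12 and 0.15 and rose (0.13 ± 0.03; adjusted p = 0.0212), though the call ended when replicate 2, 3 or 4 was left out (adjusted p = 0.0882, 0.0642 and 0.0746).

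Hmgcs1, the HMG-CoA synthase, held the largest fall of any member probe, -0.48, -0.25, -0.48 and -0.41, at a probe the files place on unplaced sequence. It fell by 0.40 ± 0.11 (SD, n = 4; adjusted p = 0.000798), and the antibody channel (9.46 to 9.74) lay below the IgG channel (9.78 to 10.17) throughout. The brightest Hmgcs1 probe, at 14.6 in log2 intensity, had -0.08, 0.08, -0.01 and -0.04 and was not called (-0.01 ± 0.07; 95% confidence interval from -0.10 to 0.07). The dimmest was not called either (-0.08; adjusted p = 0.304). By the brightest probe alone Hmgcs1 therefore counts as not called, while the mean of its 3 probes was called lower (-0.17; adjusted p = 0.00983). Mvd, Idi1 and Fdps, the decarboxylase, isomerase and farnesyl diphosphate synthase that complete this stretch, were not called at any of their 5 probes, whose ratios ran from -0.12 to 0.01.

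From squalene to cholesterol, 3 of 10 genes rose, 1 fell and 6 were not called, where 14.6% of named genes rose and 13.4% fell. The median of the 10 genes was 0.04. Of 20 tested probes 4 rose and 5 fell (20% and 25%, against 14.2% and 13.6% of every tested probe). Ebp, the sterol isomerase, had 0.32, 0.20, 0.19 and 0.22 and rose (0.23 ± 0.06; 1.18-fold; adjusted p = 0.003) at chrX:6618487-6618546 (mm7, minus strand). Every passage was well above 0. It passed with each replicate left out, from the deposited processed signals (0.16; adjusted p = 0.0424) and with trends removed (0.22). Hsd17b7, a sterol ketoreductase, had 0.22, 0.08, 0.06 and 0.29 and rose (0.16 ± 0.11; adjusted p = 0.0293), highest in passages 14 and 19, while its other probe was not called (0.03). Its call ended without replicate 1 or 4 (adjusted p = 0.0983 and 0.116), with the deposited processed signals (adjusted p = 0.0697) and for the mean of both probes (0.10; adjusted p = 0.0858). Squalene epoxidase, Sqle, had 0.05, 0.19, 0.11 and 0.14 and rose (0.12 ± 0.06; adjusted p = 0.0345), which ended when replicate 2, 3 or 4 was left out (adjusted p = 0.148, 0.0822 and 0.105), with the deposited processed signals (adjusted p = 0.0583) and with trends removed (0.07; adjusted p = 0.167).

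Lanosterol demethylase, Cyp51, fell at its brightest probe, with -0.32, -0.15, -0.16 and -0.24 (-0.22 ± 0.08; adjusted p = 0.00533), at chr5:4089242-4089301 (mm7, minus strand). A second probe had -0.17, -0.03, -0.11 and -0.15 and fell too (-0.12 ± 0.06; adjusted p = 0.044), but lost its call whichever replicate was left out (adjusted p from 0.0502 to 0.137) and with the deposited processed signals (adjusted p = 0.16). The third Cyp51 probe, nearly as bright as the first, had 0.03, 0.17, 0.04 and 0.13, above 0 on all arrays, and was not called (adjusted p = 0.1). The mean of the 3 probes was not called (-0.08; adjusted p = 0.111). Dhcr7, the reductase of the last step, fell at its dimmer probe (-0.18, -0.16, -0.08 and -0.20; -0.16 ± 0.05; adjusted p = 0.013). That call ended without replicate 4 (adjusted p = 0.056) and with the deposited processed signals (adjusted p = 0.0695). The brighter Dhcr7 probe was above 0 on every array, at 0.09, 0.08, 0.05 and 0.09, and was not called (0.08 ± 0.02; adjusted p = 0.109). Fdft1, Lss, Msmo1 and Sc5d, which are squalene synthase, lanosterol synthase, the methylsterol oxidase and the lathosterol oxidase, had no called probe.

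Nsdhl, which helps remove the methyl groups of lanosterol, was the 1 gene of the list with probes called in both directions. The probe that rose had 0.12, 0.15, 0.16 and 0.21 (0.16 ± 0.04; adjusted p = 0.0102). Of the 2 that fell, the brighter had -0.20, -0.17, -0.15 and -0.19 (-0.18 ± 0.02; adjusted p = 0.00587) and the dimmer -0.34, -0.06, -0.09 and -0.19 (-0.17 ± 0.13; adjusted p = 0.0318). The first 2 kept their sign and call from the deposited processed signals, with trends removed and with each replicate left out. The dimmer lost its call when replicate 1 or 4 was left out (adjusted p = 0.0901 and 0.096). The brightest of the 4 Nsdhl probes was not called (0.03 ± 0.07). No direction can be given for Nsdhl as a gene.

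**Figure D3:**
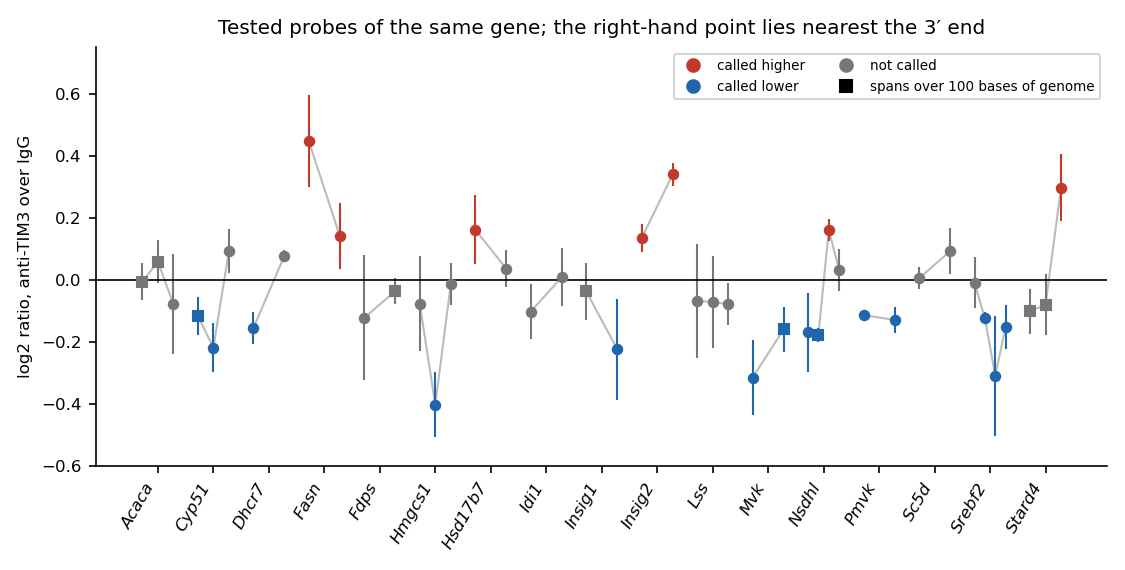
Log2 ratio (vertical axis; mean and SD over 4 arrays) of each tested probe of the 17 genes with several, ordered within a gene so that the right-hand point lies nearest the 3′ end of the transcript by the files' mm7 coordinates. Squares are probes whose coordinates span over 100 bases of genome. Nsdhl has called probes on both sides of 0, and Stard4, Cyp51, Dhcr7, Idi1 and Acaca have ratios on both sides.

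In all, 17 genes had more than 1 tested probe, and 6 of them had ratios on both sides of 0. The median range between the probes of a gene was 0.19, close to the size of the called changes themselves. Of 7 genes with at least 2 called probes, 6 had them all in 1 direction (Fasn, Insig2, Mvk, Pmvk, Srebf2 and Cyp51), against 66.9% of 909 named genes on the array. Some probes have mm7 coordinates that reach over far more than their 60 bases, as those of a probe that crosses an intron do. Those of Insig1, Mvk, Cyp51 and Nsdhl are given, 5′ to 3′, since in each of these genes another probe gave a different size or sign of ratio. No part is in capitals because the files do not mark where the exons join.
Nsdhl, chrX:68341842-68343023 (mm7, plus strand), ratio -0.18: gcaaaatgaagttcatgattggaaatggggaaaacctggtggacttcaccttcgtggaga
Cyp51, chr5:4098039-4098445 (mm7, minus strand), ratio -0.12: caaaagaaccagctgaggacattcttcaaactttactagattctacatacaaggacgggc
Mvk, chr5:113677760-113680707 (mm7, plus strand), ratio -0.16: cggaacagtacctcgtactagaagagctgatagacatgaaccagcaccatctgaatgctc
Insig1, chr5:27107061-27107533 (mm7, plus strand), ratio -0.04: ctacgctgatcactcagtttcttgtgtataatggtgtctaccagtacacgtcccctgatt
Exons and untranslated regions are not marked in the files.

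Both genes of sterol transport rose at their brightest probe, where 14.6% of named genes rose. Stard4, a carrier of cholesterol between membranes, had 0.34, 0.14, 0.39 and 0.31 at its brightest probe and rose (0.30 ± 0.11; adjusted p = 0.00263). This held with each replicate left out and from the deposited processed signals (0.30; adjusted p = 0.0309). Both other Stard4 probes were below 0 on every array and not called (-0.08 and -0.10), and the mean of the 3 probes was 0.04 and not called (adjusted p = 0.47). Abca1, the transporter that moves cholesterol out of the cell and a target of the LXR receptors, had 0.05, 0.26, 0.11 and 0.40 and rose (0.21 ± 0.16; adjusted p = 0.0242). Its rise was uneven, highest in passage 19, and the call ended without replicate 2 or 4 (adjusted p = 0.0706 and 0.0871), from the deposited processed signals (adjusted p = 0.103) and with trends removed (adjusted p = 0.0732). The IgG level of Abca1 also varied most among the members, at 10.65, 10.03, 9.46 and 9.74. For 27 of the 30 brightest probes the range of the IgG level over the passages was larger than the mean ratio, with a median range of 0.30.

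In fatty acid synthesis 2 of 6 genes rose, 1 fell and 3 were not called, where 14.6% of named genes rose and 13.4% fell. Fatty acid synthase, Fasn, had the highest mean ratio of all member probes, with 0.33, 0.66, 0.42 and 0.38 at chr11:120916191-120916250 (mm7, minus strand), and rose (0.45 ± 0.15; adjusted p = 0.00114). The channels did not overlap, with 15.65 to 16.24 in IgG and 16.31 to 16.60 after the antibody. This is also the brightest member probe, at 16.3, and of all tested probes over 16 in log2 intensity 89.6% were called higher, with a median of 0.34. From the deposited processed signals its ratio was 0.15 and did not pass (adjusted p = 0.247), and with trends removed it was 0.27 (adjusted p = 0.0188). The other Fasn probe, at 10.0 in log2 intensity, had -0.01, 0.24, 0.17 and 0.17 and rose by less (0.14 ± 0.11; adjusted p = 0.0453). Its call ended when replicate 2, 3 or 4 was left out (adjusted p = 0.171, 0.114 and 0.129), and also with the deposited processed signals (adjusted p = 0.19).

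The stearoyl-CoA desaturases Scd1 and Scd2 put the double bond into fatty acids. Scd2 had 0.15, 0.21, 0.09 and 0.20 and rose (0.16 ± 0.06; adjusted p = 0.0122), but its probe was at 16.1 in log2 intensity, its ratio lay under the 0.34 of such probes, and it was -0.07 from the deposited processed signals and -0.02 with trends removed. The call also ended without replicate 2 or 4 (adjusted p = 0.0538 and 0.0517). Scd1 had 0.04, 0.15, -0.05 and 0.15 and was not called (0.07 ± 0.10; adjusted p = 0.22). Scd2 minus Scd1 was above 0 on each array (0.10, 0.06, 0.14 and 0.05) after loess, and -0.14 from the deposited processed signals. Elovl6, which lengthens palmitate, had -0.18, -0.12, -0.15 and -0.06 and fell (-0.13 ± 0.05; adjusted p = 0.0294). It was at 0.03 with median centring and the call ended when replicate 1, 2 or 3 was left out (adjusted p = 0.0756, 0.0842 and 0.0999), with the deposited processed signals (adjusted p = 0.064) and with trends removed (-0.08; adjusted p = 0.0851). Acly, which makes cytosolic acetyl-CoA from citrate, and Acaca, the acetyl-CoA carboxylase, had ratios from -0.08 to 0.06 at 4 tested probes and were not called.

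**Figure D4:**
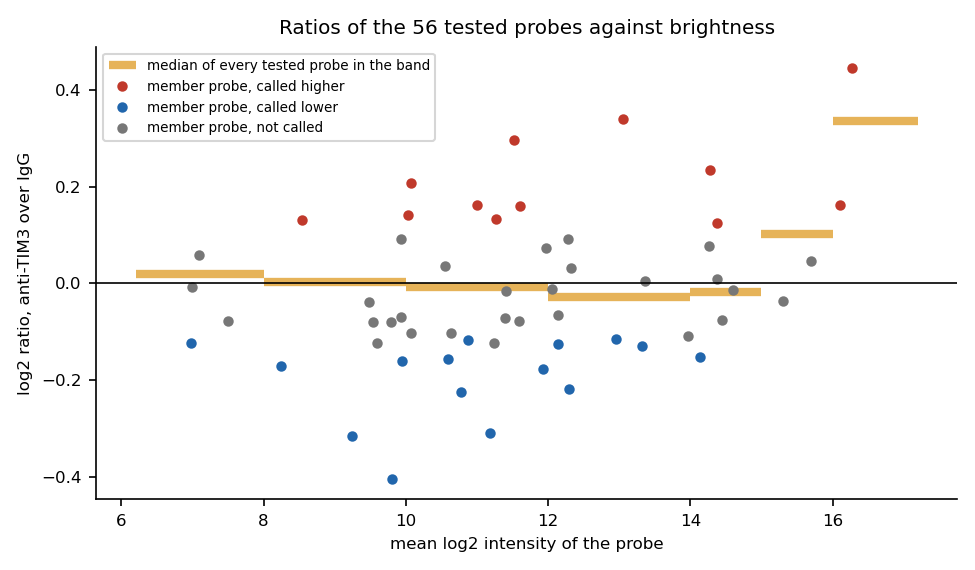
Mean log2 ratio (vertical axis) of the 56 tested member probes against their mean log2 intensity (horizontal axis), coloured by call, with the median of every tested probe in each band of intensity as a thick line. The line stays between -0.03 and 0.02 up to 15 and reaches 0.34 over 16, where the Fasn probe lies above it and the Scd2 probe below it.

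The 12 genes without a called probe (Fdps, Idi1, Mvd, Fdft1, Lss, Msmo1, Sc5d, Srebf1, Scap, Acaca, Acly and Scd1) had 19 tested probes with ratios from -0.12 to 0.09 and adjusted p-values from 0.0901 to 0.944. The means of the 3 Lss probes ran from -0.08 to -0.07. Msmo1, at 15.7 in log2 intensity, had 0.05 after loess but -0.13 from the deposited processed signals (adjusted p = 0.0497) and -0.14 with trends removed (adjusted p = 0.0145), both called lower, so its direction turned with the processing. A Fdps probe was called lower with trends removed (-0.17; adjusted p = 0.00966, against -0.04 without), and an Idi1 probe without replicate 1 (-0.14; adjusted p = 0.0453) and with array weights. The 4 untested probes, of Acaca, Acly, Insig2 and Fdft1, were well above background on at most 2 arrays.

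**Figure D5:**
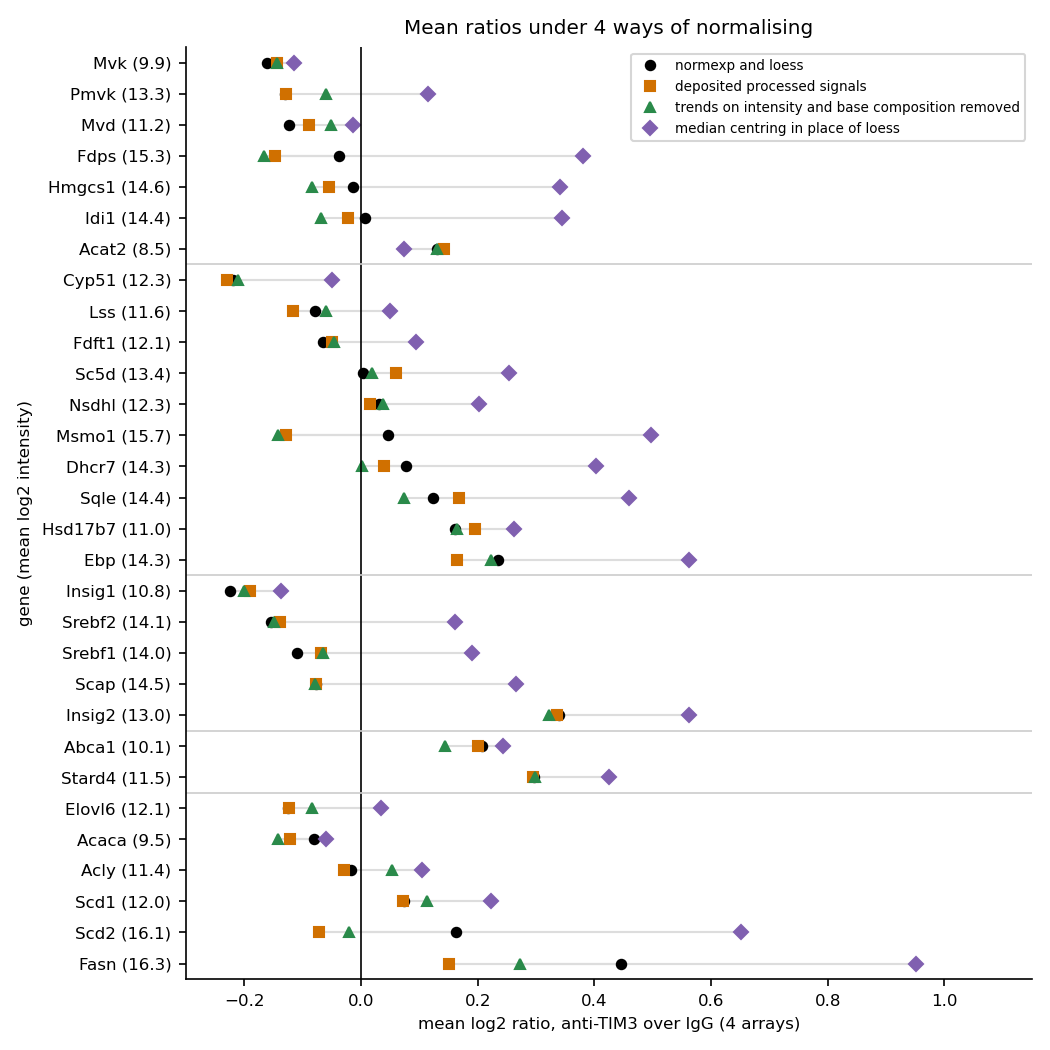
Mean log2 ratio (horizontal axis, 4 arrays) of the brightest probe of each gene under 4 ways of normalising, with the mean log2 intensity of the probe in brackets. The first 3 ways lie close together for most genes, while median centring moves bright probes to the right, so that the called genes Pmvk, Srebf2 and Elovl6, and some not called, change sign. Scd2 and Msmo1 also change sign with the deposited processed signals and with trends removed.

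Of 25 other genes of the same pathways, 24 were tested. At the brightest probe of each 2 rose, 3 fell and 19 were not called, with a median of -0.04. The share called was 20.8%, where 28% of named genes on the array were called. Of the 41 tested probes of these genes 6 rose and 5 fell, against 14.2% and 13.6% of every tested probe. Some genes not called at their brightest probe had a dimmer probe that was called. Elovl5, an elongase of polyunsaturated fatty acids, had 0.21, 0.26, 0.21 and 0.13 and rose (0.20 ± 0.06; adjusted p = 0.00532). Ggps1, which branches off from farnesyl diphosphate to geranylgeranyl diphosphate, had 0.21, 0.09, 0.11 and 0.15 and rose (0.14 ± 0.05; adjusted p = 0.0204). Npc2, which carries cholesterol out of the lysosome, had -0.32, -0.18, -0.23 and -0.37 and fell (-0.27 ± 0.08; adjusted p = 0.0024).

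Fads2, a desaturase of polyunsaturated fatty acids, had -0.30, -0.09, -0.08 and -0.15 and fell (-0.16 ± 0.10; adjusted p = 0.0298). Without replicate 1 neither Fads2 nor Ggps1 passed (adjusted p = 0.0766 and 0.0566), nor without replicate 4 (adjusted p = 0.0803 and 0.0672), while Elovl5 and Npc2 passed with each replicate left out. Ggps1 did not pass from the deposited processed signals (adjusted p = 0.127), though Fads2 did (adjusted p = 0.0441). With trends removed Fads2 did not pass (adjusted p = 0.187), though Ggps1 did (adjusted p = 0.0148). With median centring Npc2 had a ratio of 0.02.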

How the data were processed

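Per the file headers, the deposited files give spot intensity on a linear scale for either dye, read by Agilent Feature Extraction 9.5.1.1 with annotation build mm7 (version 9 in the submitters' processing notes). A deposited table of log10 ratios (Cy5 over Cy3) is identical to the ratio column of the scanner files.

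Mean signals were corrected with the median local background (normexp, offset 50) and each array was normalised by loess, giving control spots weight 0. Spots marked as outliers were dropped and those of a probe averaged. The 26545 of 41174 probes that stood well above background on 3 or more arrays in Cy3 or Cy5 were compared with 0 in limma 3.58.1 (R 4.3.3), with Benjamini-Hochberg adjustment over all of them. Channel levels were scaled between arrays on mean intensity, keeping each ratio. The fit was tested on simulated data. Precision is limited by the number of arrays. The p-values reflect how far passages differ, with the variance of each probe drawn towards a value pooled over all tested probes.

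Probes were named through RefSeq (GRCm38.p6), which also gave the promoter windows. The members and lists were chosen with earlier results of these data known. Genes with a called probe and the pairs Srebf1 and Srebf2, Insig1 and Insig2, and Scd1 and Scd2 are given on every array. Of the other pathway genes those called are named, up to 4 a direction. Some genes this rule or the marker lists take are not reported here. Alternatives changed the background correction, the normalisation, the filter, the treatment of outliers, the variance prior, the weights of arrays, the pairing, a minimum change, trends on intensity and base composition, bright probes, the mean of a gene's probes and each replicate left out. The same alternatives were applied to the other pathway genes, a step added after seeing the data.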

Additional observations from a re-analysis of the deposited data

Results flagged for a closer look

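In the brighter probe of Dhcr7, the reductase of the last step of cholesterol synthesis, replicate 3 (passage 18) stood apart from the other arrays. Its log2 ratio was 0.05072 against 0.08 to 0.09 in the other 3. Of 56 tested member probes checked in this way it was the only array that did so, and chance flags about 1 in 20 such sets of 4 values. The gap is small beside the changes called in other genes, and the probe was not called.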

How the results depend on the processing

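The counts of member probes (12 higher, 15 lower) and genes (9 and 6) moved by at most 1.5 times with a normexp offset of 10, no filter, a filter on both channels, outlier spots kept, another variance prior, array weights, bright probes left out and trends removed. The members' share called was 44.6% with no filter (19.1% of every tested probe) and 49.1% with a filter on both channels (33.3%). It was 50% with array weights (34.7%), 48.2% with outlier spots kept (27.3%) and 48.2% with another variance prior (28.3%). With bright probes left out it was 48.1% (27.0%), and with trends removed 41.1% (26.1%). With an offset of 10, 7 probes lost their calls and 35.7% of member probes were called, against 21.8% of every tested probe. With the deposited processed signals 5 probes rose and 7 fell, and 4 genes rose and 2 fell; the members' share called (21.4%) was then close to that of every tested probe (19.7%). With median centring and against a minimum change of 1.2-fold 0 member probes or genes were called, against 0.44% and 0.21% of every tested probe. With the channels unpaired 0 probes rose, 1 fell, and 0 genes were called, where 2.19% of every tested probe was. By unadjusted p in limma, 11 genes were higher and 0 lower with median centring, 2 and 0 against the minimum change, and 6 and 2 with the channels unpaired. Of the 26545 tested probes of the array, 2311 were then higher and 561 lower with median centring. The numbers were 246 and 163 against the minimum change, and 2438 and 2408 with the channels unpaired. Leaving out 1 replicate gave 5 to 11 probes higher and 6 to 10 lower, and 4 to 8 genes higher and 2 to 4 lower. In those fits 19.6% to 33.9% of member probes and 15.9% to 23% of every tested probe were called. With the mean of a gene's probes 7 genes rose and 5 fell: Stard4, Cyp51, Insig1 and Hsd17b7 lost their calls and Hmgcs1 gained one. The share of all genes called in that fit is not given here, so these counts cannot be set against the array. The median of the genes (-0.005) was -0.052 from the deposited processed signals, 0.234 with median centring, -0.049 with trends removed and -0.040 for the mean of a gene's probes. Of the probes called in either fit, ratios changed sign for Scd2 (-0.072 deposited, -0.020 trends removed), Msmo1 (-0.128 and -0.142) and, with median centring, both Pmvk probes (0.101 and 0.115), Elovl6 (0.035) and the brightest Srebf2 probe (0.161). A further 10 probes that were not called changed sign with median centring (of Fdps, Hmgcs1, Acaca, Acly, Scap, Srebf1, Srebf2, Fdft1 and Lss), 2 with the deposited processed signals and 3 with trends removed. The cause was not tested. Of the other pathway genes (2 higher, 3 lower), 1 rose from the deposited processed signals, 0 were called with median centring, unpaired channels or the minimum change (1, 4 and 0 by unadjusted p), 5 fell with array weights, and 4 rose and 1 fell with trends removed. Leaving out 1 replicate gave 1 to 2 higher and 1 to 4 lower. Of every tested probe 19.7% was called from the deposited processed signals, 34.7% with array weights and 26.1% with trends removed. Dim probes limit what could be measured: the 4 untested member probes were at 6.40 to 6.60 in log2 intensity, near the background.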

Other observations

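The probe nearest the 3′ end was compared with the mean of the gene's other tested probes. In 10 of the 17 genes with several tested probes its ratio was above that mean (58.8%), close to the 58.1% over 5823 named genes of the array. Its intensity was also above the mean of the others in 14 of the 17 (82.4%, against 70.8% of the named genes). The median difference in ratio was 0.09 in the members and 0.03 in all. The difference was widest in Stard4 (0.39), the cholesterol carrier, then Cyp51 (0.26), the lanosterol demethylase, and Dhcr7 (0.23), and it ran the other way in Fasn (-0.31) and Insig1 (-0.19). Of the 10 tested member probes whose mm7 coordinates span over 100 bases of genome, 0 rose, 3 fell (those of Mvk, Cyp51 and Nsdhl) and 9 were below 0, with a median of -0.07. Over the 3317 such probes on the array 9.20% rose, 19.9% fell and 59.5% were below 0, with a median of -0.03. For the other tested member probes the median was -0.02, and for the other tested probes of the array 0.01. The part of probe position in the members' ratios was not tested.

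The arrays resembled each other in pairs. Over the 56 tested member probes, which share each array's normalisation and dye, replicates 1 and 4 correlated at a Pearson's r of 0.84 and replicates 2 and 3 at 0.83, with 0.67 to 0.78 for the remaining pairs. Every tested probe of the array showed the same pairs, at 0.71 and 0.75, with 0.52 to 0.60 for the remaining pairs. The ratio was lower in replicates 1 and 4 than in 2 and 3 at 35 of these probes (62.5%), and at 58.8% of every tested probe. Among the sterol genes, in examples chosen after their values were seen, Fdft1 (squalene synthase) had -0.16, 0.02, 0.06 and -0.18, and Mvd -0.19, -0.01, -0.003 and -0.29, lower in passages 14 and 19 than in the other pair. The brightest probe of Lss (lanosterol synthase) had -0.16, -0.01, -0.10 and -0.04 and did not divide in this way. What these passages share is not given in the labels.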
